A study of Mus musculus with 9 samples.

Results

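The PV reporter line was compared with the BV reporter line for SMAD1 binding at 36 h by chromatin immunoprecipitation followed by sequencing (ChIP-seq), in genome windows of 2 kb that step by 1 kb. A member was any autosomal window in which either library reached an enrichment of 3 or more over the input of its own line, and 309 of 2472353 autosomal windows (0.0125%) met this. SMAD1 is the transcription factor that carries a bone morphogenetic protein (BMP) signal into the nucleus: an activated BMP receptor phosphorylates it, and it then binds DNA in a complex with SMAD4. BMP signalling is the signal from outside the epiblast that starts the germ cell lineage in the mouse embryo. Blimp1 (also called Prdm1) and Prdm14 are the transcriptional regulators that mark the first germ cells, which is why their reporters are used to follow that step in culture.

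The PV line carries a Prdm14-mVenus reporter and the BV line a Blimp1-mVenus reporter, both of strain C57BL/6 and both labelled as epiblast-like cells. Per the labels' protocols, embryonic stem cells became epiblast-like cells and were then kept as floating aggregates with leukaemia inhibitory factor. BMP4 and WNT3A were added to some cultures, and the labels do not say which cytokines a given library received. The labels name the same SMAD1 antibody for both libraries, and read counts on DNA cannot be checked against expressed cell type markers. Each line had 1 SMAD1 library at 36 h and 1 input, so no difference below has a replicate check, and line and library cannot be told apart.

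The PV library held 43354004 reads, against 14925074 in the BV library, and the inputs held 42532115 reads for PV and 134657262 for BV. In a window of typical input this came to a mean of 36 counts in PV and 12.3 counts in BV. Enrichment was the scaled SMAD1 count over the scaled input count with a pseudocount of 0.5 on both, so it understates high ratios, and 1 stands for the genome's mean level. All positions are mm9 coordinates. The genome tables at hand are of another build, so no gene name or sequence was attached to a region.

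At this threshold and these settings, most of what was enriched in BV was enriched in PV as well, whereas most of what was enriched in PV stayed below 3 in BV. Among the 2238259 windows of typical input, PV reached 3 in 258 (0.0115%) and BV in 74 (0.00331%). Both libraries did so in 58 windows (0.00259%). That is 78.4% of the BV windows (exact 95% interval 67.3 to 87.1) and 22.5% of the PV windows (17.5 to 28.1). As a background, input PV over input BV reached 3 in 1 of these windows (4.47e-05%) and input BV over input PV in 10 (0.000447%). These intervals of shares treat windows (below, regions) as independent draws, but neighbouring windows share reads, so those for windows are too narrow. The intervals of ratios below cover counting error only. None covers variation between libraries, since each line had 1 SMAD1 library. The handling of duplicate reads is not given, and PCR copies counted as reads of their own would make the intervals too narrow.

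Windows that overlapped or adjoined were merged into 146 regions, of which 36 were shared, 98 were PV only and 12 were BV only. A shared region held a window at 3 or more in each library. Of the 48 regions called in BV, 75% were shared (60.4 to 86.4), and of the 134 called in PV, 26.9% were (19.6 to 35.2). The share of BV regions depends on the threshold and on depth. At a threshold of 2, where 730 regions were called in PV and 911 in BV, it was 15.4%. With both SMAD1 libraries and both inputs thinned to equal depth it was 17.3%, and with the PV library alone thinned to the BV depth 77.1%. Each region is described at its summit, the window whose log2 enrichment averaged over both libraries was highest. PV was the higher of the 2 libraries at 131 summits and BV at 15, while PV lay above BV in 49.6% of all windows of typical input. Because enrichment in these 2 libraries chose the regions, that contrast is a description of the members.

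**Figure D1:**
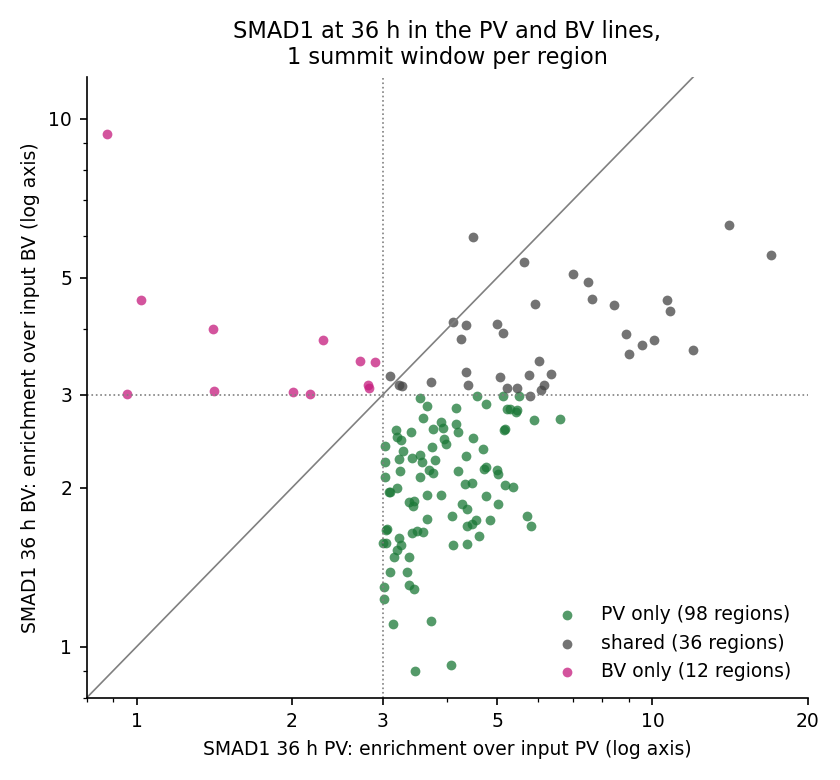
Enrichment of SMAD1 at 36 h in PV (x axis, log scale) against BV (y axis, log scale), 1 point per region at its summit window; dotted lines mark an enrichment of 3 and the diagonal marks equal values. Of the 36 shared regions 33 lie on the PV side of the diagonal, and the 12 BV only regions split into 7 with PV between 2 and 3 and 5 with PV below 1.5.

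The strongest region common to both lines was chr11:121718001-121723001, with an enrichment of 14.0 in PV and 6.28 in BV. Its summit held 686 SMAD1 and 31 input counts in PV, and 135 SMAD1 and 148 input counts in BV. Without the pseudocount the PV value was 2.57 times the BV value (95% interval 1.66 to 4.09). The region chr7:30935001-30939001 was higher still in PV, with 17, against 5.53 in BV, and its plain ratio in PV was 3.41 times that in BV (2.24 to 5.31). At both regions the difference between the lines exceeded counting error.

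At other leading shared regions the lines could not be separated. At chr11:120091001-120094001 enrichment was 5.63 in PV and 5.35 in BV, and the ratio of the plain values was 1.1 (0.692 to 1.78). The TCF1 library measured 4.2 at the same summit. It was the only one of the 146 where TCF1, a transcription factor of the WNT pathway, reached 3, against 0.00693% of all windows. At chr6:30686001-30690001 the values were 7.0 in PV and 5.09 in BV (ratio 1.41, 0.852 to 2.41). T (Brachyury), a T-box factor of the mesoderm, measured 2.56 at that summit. At chr2:174120001-174124001 they were 5.92 in PV and 4.46 in BV (ratio 1.49, 0.886 to 2.59), with 2.31 for T. Intervals that include 1 leave the direction at these 3 regions unresolved.

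The remaining regions among the 10 with the highest lower value had 3 with an interval above 1 and 2 with one that includes 1. The region chr11:50712001-50716001 had 10.7 in PV and 4.54 in BV (ratio 2.49, 1.73 to 3.62). At chr7:24889001-24892001 enrichment was 8.41 in PV and 4.43 in BV (ratio 1.82, 1.31 to 2.56). At chr5:105010001-105014001 it was 7.62 in PV and 4.55 in BV (ratio 1.85, 1.03 to 3.46). The region chr7:52429001-52432001 stood at 7.51 in PV and 4.90 in BV (ratio 1.47, 0.924 to 2.39), although the 12 h SMAD1 library of BV was at 21.5 there, the highest 12 h value of any region. Only 1 of the 10 was lower in PV: chr11:22871001-22874001 measured 4.49 in PV and 5.97 in BV (ratio 0.715, 0.461 to 1.13).

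Over all 36 shared regions enrichment ranged between 3.10 and 17 in PV, with a median of 5.85, and between 2.99 and 6.28 in BV, with a median of 3.77. The range was therefore much wider in PV. The median log2 difference, PV minus BV, was 0.75 (95% interval 0.39 to 0.96, by binomial ranks over regions, which are no replicates of the experiment). Over all windows of typical input it was -0.0036, with 95% of windows between -0.76 and 0.81. At 19 shared regions the interval of the PV over BV ratio lay above 1, at none below 1. PV was over 2-fold higher at 9 of the 36, against 0.841% of all windows. The PV and BV libraries chose these regions and their summits, so the contrasts with all windows are a description of the members.

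The shared region with the largest difference was chr9:22081001-22086001, with 12.0 in PV and 3.65 in BV, a log2 difference of 1.72. It held 683 SMAD1 and 39 input counts in PV and 76 SMAD1 and 148 input counts in BV. Next after chr7:30935001 came chr13:66531001-66535001, with 10.1 in PV and 3.81 in BV. At chr7:134753001-134757001 the values were 9.56 in PV and 3.72 in BV, and at chr17:29296001-29301001 they were 8.99 in PV and 3.59 in BV. In BV all these regions, other than chr7:30935001, lay between 3.59 and 3.81, so they differed among themselves mainly in PV.

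At the other end, chr4:106582001-106584001 had 3.10 in PV and 3.25 in BV, and chr12:117297001-117300001 had 3.23 in PV and 3.13 in BV. The region chr8:93352001-93354001 had 3.26 in PV and 3.12 in BV. These regions of equal level were weak in both lines. At chr12:20905001-20908001 the enrichments were equal, 4.11 in PV and 4.12 in BV, but input PV held only 4 counts there and the plain ratio in PV was 2.27 times that in BV (0.756 to 9.26). Of all 146 summits, 30 had under 20 counts in input PV.

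The 98 PV only regions were weaker in BV than in PV but mostly not at background. Their median enrichment was 3.76 in PV (range 3.002 to 6.62) and 2.07 in BV (range 0.90 to 2.98). BV lay between 2 and 3 at 53 of them, between 1.5 and 2 at 33, between 1 and 1.5 at 10, and below 1 at 2. By comparison, BV reached 2 in 0.0511% of all windows of typical input and 1.5 in 2.81%. The median log2 difference was 0.96 (0.87 to 1.07), and the interval of the PV over BV ratio lay above 1 at 69 of the 98. The choice of these regions fixes the direction of that difference.

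The highest of them in PV was chr5:105242001-105245001, with 6.62 in PV and 2.69 in BV. It lay 228 kb from the shared region chr5:105010001, and its plain ratio in PV was 3.52 times that in BV (1.76 to 7.47). The next was chr12:17908001-17912001, with 5.88 in PV and 2.68 in BV. At chr8:78223001-78226001 the values were 5.82 in PV and 1.69 in BV, but input PV held 10 counts there, and the ratio of 5.96 had a wide interval (2.48 to 15.8). The region chr13:62874001-62877001 had 5.70 in PV and 1.77 in BV (ratio 4.61, 2.34 to 9.53). The other 6 of the 10 highest ranged between 5.21 and 5.51 in PV and between 2.01 and 2.98 in BV. BV lay between 2.68 and 2.98, not far below the threshold, at 7 of the 10.

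A region that was flat in every SMAD1 library of BV was chr10:13724001-13727001. It held 237 SMAD1 and 43 input counts in PV, an enrichment of 4.08, and 14 SMAD1 and 142 input counts in BV, an enrichment of 0.92. The 12 h and 24 h SMAD1 libraries of BV measured 0.77 and 0.81, and T in PV measured 0.86. Its plain ratio in PV was 5.86 times that in BV (3.04 to 12.1). With chr14:40971001, at 3.47 in PV and 0.90 in BV, it was 1 of 2 PV only regions where all 3 SMAD1 libraries of BV lay below 1.5.

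The other regions at 4 or more in PV with the lowest BV values kept some enrichment in BV. At chr2:84428001-84431001 enrichment was 4.11 in PV and 1.55 in BV, with 24 SMAD1 counts against 120 in the input of BV (plain ratio 1.81, 1.12 to 2.83). At chr16:13544001-13547001 it was 4.36 in PV and 1.56 in BV, and at chr18:90760001-90763001 it was 4.60 in PV and 1.62 in BV. The 12 h library of BV measured 4.79, 3.46 and 5.14 at these 3 regions. At 9 of the 12 PV only regions with BV below 1.5 at 36 h, the BV line had 2 or more at 12 h.

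**Figure D2:**
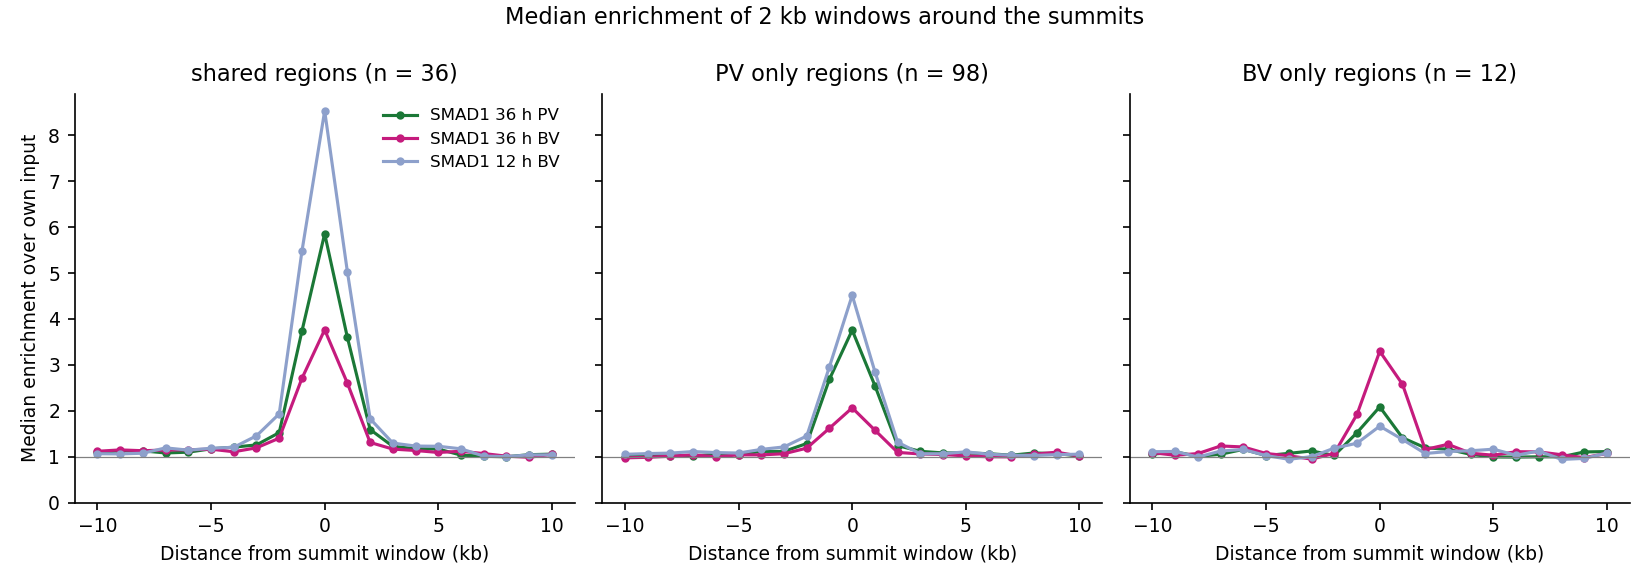
Median enrichment over the input of the same line (y axis) of 2 kb windows at each distance from the summit window (x axis, kb), for SMAD1 at 36 h in PV and BV and at 12 h in BV, in the 3 classes of regions. In shared and PV only regions all 3 libraries peak at the summit and are below 1.5 at 3 kb on both sides; at the summit of PV only regions the medians are 3.76 in PV and 2.07 in BV.

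The 12 BV only regions were of 2 kinds. PV lay between 2 and 3 at 7 of them and below 1.5 at the other 5, with none between. Over all windows, PV reached 2 in 0.0500% and 1.5 in 1.58%. The first kind included chr13:48322001-48324001, with 2.72 in PV and 3.47 in BV, and chr4:135696001-135698001, with 2.89 in PV and 3.46 in BV. It also included chr11:19920001-19922001, with 2.81 in PV and 3.13 in BV, and chr5:119535001-119537001, with 2.82 in PV and 3.09 in BV. The intervals of the PV over BV ratio at these 4 regions include 1. At 5 of the 12, PV and both earlier BV libraries all stood at 2 or more. Over all windows of typical input the 12 h library reached 2 in 0.160% and the 24 h library in 0.0331%. The region chr10:60277001-60279001 had 2.30 in PV and 3.81 in BV, and T measured 2.68 there, its highest value at any of the 146 summits. The neighbour of chr13:48322001 at 33 kb, chr13:48357001-48359001, had 2.01 in PV and 3.03 in BV.

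The second kind was led by chr10:82109001-82112001, the largest difference of any region, with 0.88 in PV and 9.36 in BV. Its summit held 16 SMAD1 and 20 input counts in PV, and 127 SMAD1 and 73 input counts in BV. The SMAD1 libraries of BV measured 0.72 at 12 h and 0.84 at 24 h, so the signal appeared in a single library of the 4. Input is low beside it: in the window 1 kb further on, input PV held 8 counts and input BV 14. At chr14:71047001-71050001 enrichment was 1.02 in PV and 4.54 in BV (52 SMAD1 and 49 input counts in PV, 79 and 114 in BV). At chr12:111060001-111063001 it was 1.40 in PV and 4.00 in BV, and at chr18:76840001-76842001 it was 1.41 in PV and 3.06 in BV. The last, chr10:23902001-23904001, had 0.96 in PV and 3.01 in BV. At these 5 regions the 12 h and 24 h libraries stayed below 2 too, as they did in nearly all windows of typical input. BV was over 2-fold higher at all 5 and at no other region (0.469% of all windows). BV at 3 or more with PV below 1.5, the values that set these 5 apart, fixes that difference.

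The earlier SMAD1 libraries of BV took no part in choosing the regions. At shared regions the 12 h library had a median enrichment of 8.53 and the 24 h library 4.64. At PV only regions the medians were 4.52 and 2.35. There the 12 h library reached 2 in 93 of 98 regions, against 0.160% of all windows, and 3 in 80, against 0.0202%. The 24 h library reached 2 in 72, against 0.0331%. Regions above the threshold only in PV at 36 h were therefore mostly enriched in the BV line at 12 h. At BV only regions the 12 h median was 1.67 (1.38 to 3.07), below that of PV only regions (3.82 to 4.87). The 24 h median there, 2.28 (1.23 to 2.72), was not separated from that of PV only regions (2.20 to 2.55).

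Over all regions, 87 of 146 stood at 2 or more in all 4 SMAD1 libraries, against 0.00862% of all windows. The PV and BV libraries at 36 h chose these regions, so that condition is met in part by the choice, unlike in the share of all windows. The 12 h library was above PV at 30 of 36 shared regions and at 56 of 98 PV only regions, against 50.0% of all windows. The median log2 difference of PV at 36 h minus BV at 12 h was -0.16 (-0.27 to -0.09) over the 146, while that of BV at 36 h minus BV at 12 h was -1.05 (-1.14 to -0.94). The 3 SMAD1 libraries of BV share input BV. The series holds a further input library, titled input BVSC, which was not the own input of any library here. Over input BVSC the 12 h medians were 9.13, 4.23 and 1.88 in shared, PV only and BV only regions.

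The titles of the T and TCF1 libraries give no time point, unlike those of the SMAD1 libraries, so they were not matched to 36 h. The medians of T and TCF1 stayed below 1.5. The T median was 1.28 at shared, 1.1 at PV only and 1.32 at BV only regions, and that of TCF1 was 1.09, 0.997 and 1.14. T reached 1.5 at 33 of the 146, against 3.80% of all windows, and 2 at 8, against 0.425%. TCF1 reached 1.5 at 14, against 3.99%. At the 33 regions with T at 1.5 or more the log2 difference between the lines had a median of 0.56 (0.39 to 0.72), against 0.92 (0.84 to 1.01) at the other 113. This split was made after the values were seen, and T and the PV library share input PV.

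**Figure D3:**
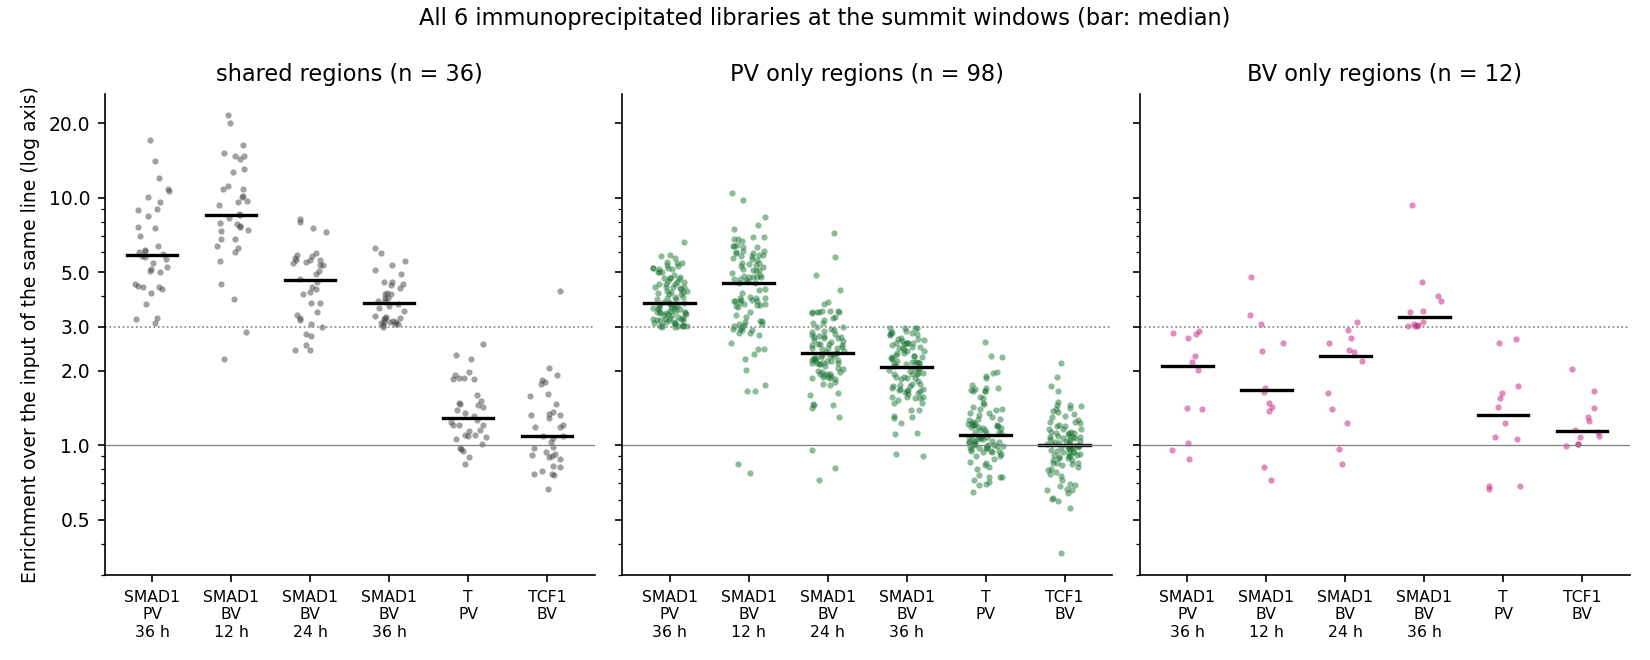
Enrichment over the input of the same line (y axis, log scale) at the summit window of each region, for the 4 SMAD1 libraries, T and TCF1; points are regions, bars are medians and the dotted line marks 3. At PV only regions the 12 h library of BV has a median of 4.52, while the 36 h library of BV has 2.07. By class the medians lie between 1.1 and 1.32 for T and between 0.997 and 1.14 for TCF1. Single regions reach 2.68 for T and 4.2 for TCF1.

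To compare the lines at regions that neither 36 h library had chosen, windows of typical input with SMAD1 at 12 h at 3 or more over input BVSC were merged into 314 regions. Neither 36 h value uses that input. The counts of input BVSC follow another window rule, since 47.4% of 1 kb bins solved from its windows fell below 0, against at most 0.291% in the other 8 libraries. SMAD1 at 36 h was higher in PV than in BV at 257 of the 314, against 49.6% of all windows. The median enrichment was 2.25 in PV (2.05 to 2.47) and 1.66 in BV (1.6 to 1.73), a log2 difference of 0.55 (0.48 to 0.62). PV reached 3 at 107 of these regions, against 0.0115% of all windows, and BV at 35, against 0.00331%. Chosen over input BV instead, 231 regions gave a difference of 0.65 (0.57 to 0.72). Over input BVSC the difference depended on the settings. It was 0.05 (0.03 to 0.06) at a threshold of 2 and 0.72 (0.64 to 0.79) at a threshold of 4. With a pseudocount of 0.25 it was 0.26 (0.21 to 0.32), and with a pseudocount of 1 it was 0.62 (0.55 to 0.74).

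Chosen over input BVSC, the difference was larger where the 12 h signal was stronger. With the 12 h library between 3 and 4 (187 regions), the medians at 36 h were 1.76 in PV and 1.41 in BV, a log2 difference of 0.37 (0.26 to 0.49). Between 4 and 6 (70 regions) they were 3.15 in PV and 2.02 in BV, a difference of 0.68 (0.57 to 0.78). Between 6 and 10 (40 regions) the difference was 0.71 (0.56 to 0.82). At 10 or more (17 regions) the medians were 7.51 in PV and 3.92 in BV, a difference of 0.98 (0.72 to 1.23). Every one of those 17 reached 3 in PV, against 14 in BV. The pseudocount draws low values towards 1, and its part in this order was not tested. The interval of the weakest bin overlapped none of the other 3, and those 3 overlapped each other. Chosen over input BV, the weakest bin had 0.57 (0.44 to 0.65), the next 2 had 0.72 (0.43 to 0.81) and 0.72 (0.56 to 0.82), and the strongest had 0.98 (0.72 to 1.36). There the weakest bin overlapped the middle ones, so the order of the bins depends on the input used to choose the regions.

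**Figure D4:**
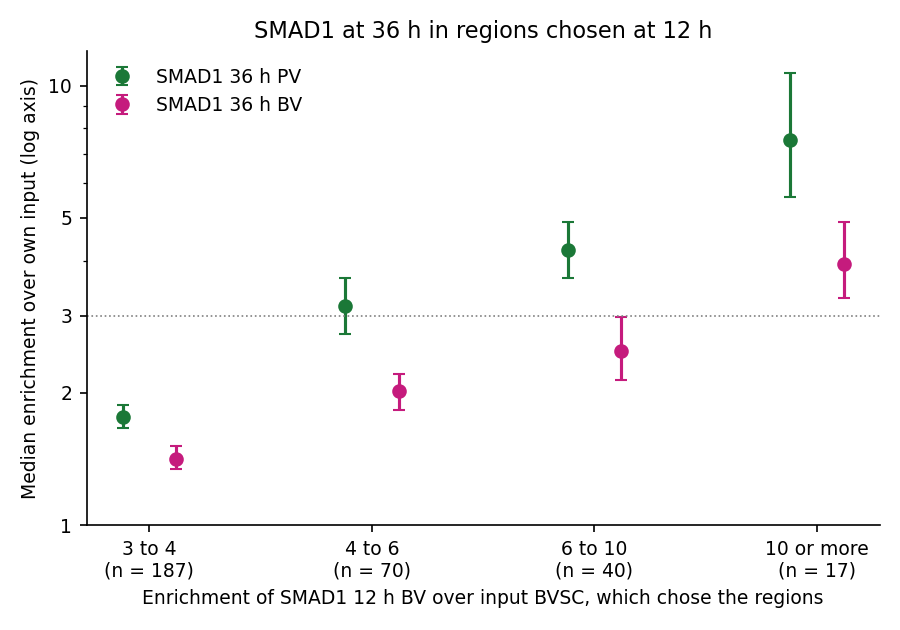
Median enrichment of SMAD1 at 36 h in PV and BV (y axis, log scale) at regions chosen by the 12 h library, by their 12 h enrichment (x axis); bars are 95% intervals of the medians from the ranks of the regions. PV lies above BV in each of the 4 bins, with 7.51 in PV and 3.92 in BV at a 12 h enrichment of 10 or more.

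Many regions lay near one another. Of the 146, 71 had another within 1 Mb and 39 had another within 100 kb. Among shared regions the 14 with a neighbour within 1 Mb had a median log2 difference of 0.89 (0.65 to 1.40), and all 14 were higher in PV. The 22 without one had 0.40 (0.07 to 0.96), and 19 of them were higher in PV. The 2 intervals overlap. T moved with this split: its median was 1.03 at regions with a neighbour and 1.31 at those without, and 29 of the 33 regions with T at 1.5 or more had no neighbour. The part of T in the difference between the lines was not tested.

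There were 11 runs of 3 or more regions with gaps of at most 1 Mb, holding 39 regions on 7 chromosomes. PV was the higher library at 38 of the 39, and at 131 of all 146 regions. The class fixes that direction at PV only and BV only regions, so only the shared regions of the runs were free to differ. The longest by count was on chromosome 5 between 109906001 and 110509001, with 6 PV only regions in 603 kb. They ranged between 3.03 and 5.36 in PV and between 2.01 and 2.66 in BV. On chromosome 8, 3 regions between 71751001 and 71898001 had 5.46 to 10.8 in PV and 2.81 to 4.33 in BV. On chromosome 13, 4 regions between 61961001 and 62877001 had 3.41 to 5.70 in PV and 1.74 to 2.28 in BV, and all were PV only. On chromosome 17, 4 regions between 17109001 and 17404001 had 3.66 to 5.79 in PV and 2.82 to 3.10 in BV. The single exception in direction was the BV only region chr10:82109001, which ran with 2 PV only regions.

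**Figure D5:**
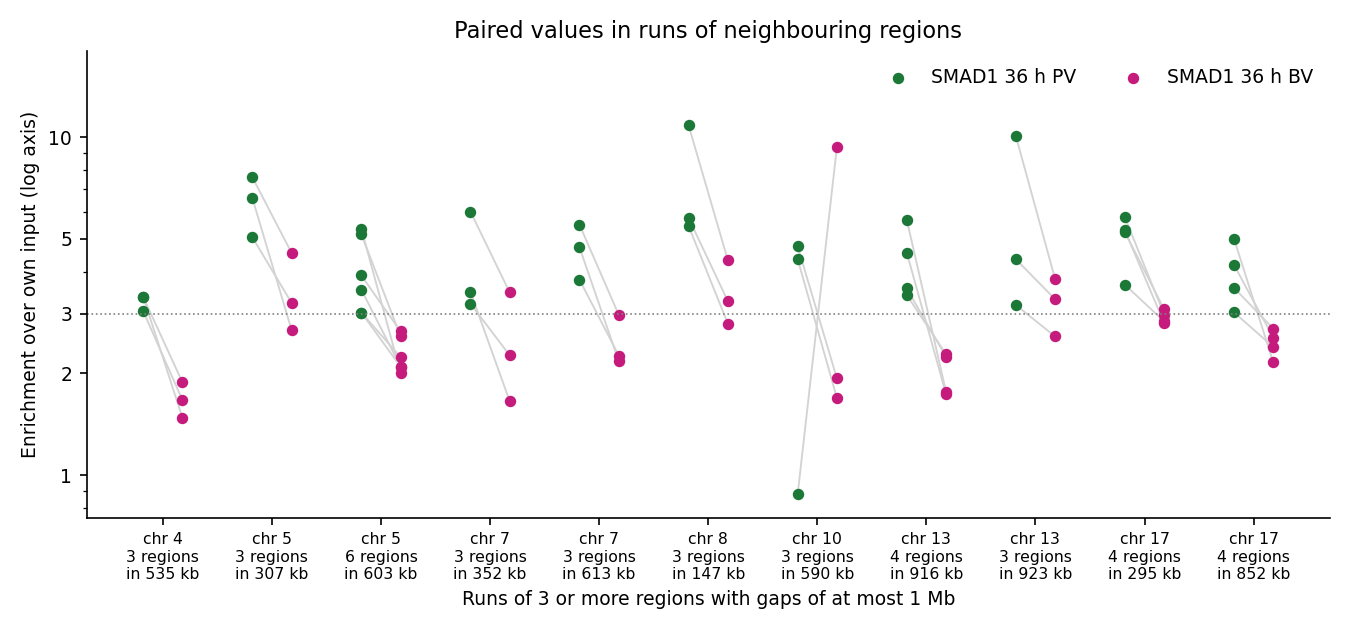
Enrichment of SMAD1 at 36 h (y axis, log scale) in PV and BV at each region of the 11 runs, 1 line per region joining its 2 values; the x axis gives chromosome, number of regions and span of each run. PV is the higher library at 38 of the 39 regions, a direction that the class fixes at all but the shared ones, and chromosome 10 holds the exception, a BV only region.

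By chromosome, regions were most frequent on chromosome 17 (13 regions, 1.52 per 10 Mb of windows), chromosome 7 (17 regions, 1.37) and chromosome 13 (13 regions, 1.2). Chromosome 3 held none, with 146787 windows of typical input. The inputs of the lines differed in level on 3 chromosomes: input PV over input BV was 1.16 on chromosome 8, 1.15 on chromosome 14 and 0.862 on chromosome 11. With each library divided by its own input, the median log2 difference over all windows of a chromosome stayed between -0.07 and 0.03. The largest shifts were on the same 3 chromosomes, with -0.0688 on chromosome 11, -0.0531 on chromosome 14 and 0.0259 on chromosome 8. At the summits the median scaled input was 0.951 in PV and 0.907 in BV at shared regions, 0.894 in PV and 0.987 in BV at PV only regions, and 1.07 in PV and 0.876 in BV at BV only regions. Input was thus the lower of the pair in the line for which a class is named, and its part in the line-specific classes was not tested.

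Windows outside the typical range of input made up the other 35 of the 309 members. Of these, 24 had low input (23 called in PV and 2 in BV), with 10 on chromosome 13 and 7 on chromosome 12. With windows of any input, input PV over input BV reached 3 in 171 (0.00692%) and input BV over input PV in 266 (0.0108%), nearly all of them outside the typical range. Inputs alone thus passed the threshold more often there than the SMAD1 libraries did. All 11 windows of high input were called in PV and none in BV. A run of 7 of them, chr17:39979001-39987001, had 3.29 to 3.58 in PV and 1.14 to 2.04 in BV, while the scaled inputs were 19.7 to 59.2 in PV and 12.9 to 36.4 in BV. In that run T measured 2.70 to 3.19 and TCF1 2.51 to 3.85, so the rise over input there was not particular to SMAD1 libraries, and these windows were kept out of the regions.

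Members just inside and just outside the threshold had nearly the same values. The 3 PV windows nearest above it had 3.002, 3.01 and 3.02, and the 3 nearest below had 2.99, 2.99 and 2.97. In BV the 3 nearest above had 3.01 each, and the nearest below had 2.999, 2.99 and 2.99. One of those, chr17:17402001-17404001, had 5.79 in PV and 2.99 in BV. When the PV library alone was thinned to the read number of the BV library (tried once these values had been seen), 136 regions were called in PV and 48 in BV, with 37 shared and a median log2 difference of 0.75 (0.41 to 1.02) at the shared ones. When the inputs were thinned to that number as well, 353 regions were called in PV and 260 in BV. Of these 45 were shared, 308 were PV only and 215 were BV only, so most added calls were in 1 library.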

How the data were processed

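The deposited values are raw read counts in 2 kb windows stepping by 1 kb, and the authors did not normalize them, as the values show. Each read falls in 2 windows, except that the counts of input BVSC follow another rule. Bowtie 0.12.8 and build mm9 are named per the submitters' processing notes. The handling of duplicate reads is not given in the sources used here.

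Counts were scaled per library so that 1978277 autosomal windows averaged 1, those whose mean input (PV and BV) fell within the 10th to 90th percentile. Enrichment was the scaled SMAD1 value over the scaled input of the same line, with a pseudocount of 0.5, and 3 was the threshold. Windows of typical input had a mean scaled input of at least 0.25 and neither input above 3. Plain ratios carry exact (Clopper-Pearson, or conditional for ratios of ratios) 95% intervals. With 1 library per group there was no test and no p-value.

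Regions were named by rule: the 10 shared regions with the highest lower value, the 10 PV only with the highest PV value and the 10 at 4 or more with the lowest BV value, the 10 BV only with the highest BV value, and the 5 shared with the largest and the 5 with the smallest difference. Others named (chr14:40971001, chr10:23902001) were chosen after their values were seen. The members and lists were chosen with earlier results of these data known. The scripts were tested on simulated data. Python 3.11.15, NumPy 2.4.6, pandas 2.3.3, SciPy 1.17.1 and matplotlib 3.10.9 were used.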

Additional observations from a re-analysis of the deposited data

Results flagged for a closer look

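At 4 regions 1 library had an enrichment above 3 while the other lay just below 1, the level of its input within counting error, and the difference was not tested because each line had 1 library. In favour of BV these were chr10:82109001, with 0.88 in PV and 9.36 in BV at its summit, and chr10:23902001, with 0.96 in PV and 3.01 in BV. In favour of PV they were chr10:13724001, with 4.08 in PV and 0.92 in BV, and chr14:40971001, with 3.47 in PV and 0.90 in BV.

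The X chromosome was outside the comparison. Of its 122272 windows, 5 reached 3 in PV and 0 in BV, while input PV over input BV reached 3 in 1 and input BV over input PV in 50. They lie in chrX:20606001-20610001, with up to 6.14 in PV and 2.68 in BV, and in chrX:20658001-20661001, with up to 5.17 in PV and 1.84 in BV. SMAD1 at 12 h in BV measured 6.30 and 3.32 at the same 2 windows.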

How the results depend on the processing

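Among the recomputed values that a setting could touch, 202 stayed within a set tolerance, 54 moved beyond it and 1 reversed in sign. For a count the tolerance was 1.5-fold either way. For a share or a median it was the 95% interval of the reported value. The median log2 difference at shared regions stayed between 0.42 and 0.78 in the 21 alternatives that could move it. At a threshold of 2, the difference over all regions was -0.27 and over those chosen at 12 h 0.05, with 730 regions called in PV, 911 in BV, 140 shared, 590 PV only and 771 BV only (15.4% of BV regions shared). At a threshold of 4 these were 0.98 and 0.72, with 75, 16, 14, 61 and 2 regions (87.5%). With a pseudocount of 0.25, 89 regions were called in BV, 61 shared and 28 BV only, and the 12 h choice gave 0.26. With a pseudocount of 1, 87 were called in PV, 22 in BV, 18 shared and 4 BV only, and the 12 h choice gave 0.62. With the other line's input 29 were BV only (56.7% shared), with input BVSC 32 (54.9%), and with every other window from the second 7. With all 4 libraries thinned to 14925074 reads, inputs included, 353 were called in PV, 260 in BV, 308 PV only and 215 BV only (17.3%). Choosing 12 h regions over input BV, an alternative added once the data had been seen, gave 0.65. The number of BV only regions is thus the least stable count. The cause was not tested. No paired analysis was possible because each line had 1 library. A summit held as few as 7 BV counts. Thinning the PV library alone to the depth of the BV library left 37 shared and 11 BV only regions (77.1%).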
